A study of Mus musculus with 2 samples.

Results

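The Mir200 family, Mir205 and Mir203 are miRNA genes known from epithelia. They were counted here in neural tube, the embryonic tissue that forms brain and spinal cord, from mouse embryos of strain B6NCrl at embryonic day 15.5. The 7 genes, out of 1973 miRNA genes in the tables, were looked up by Ensembl identifier, and they were chosen by their epithelial role and from measured values of these same libraries, in which 6 of them differed far more than most genes. The samples form 1 group of 2 biological replicates from healthy embryos, with no treated and no control group. Library 1 was a pool of 78 embryos and library 2 a pool of 62 embryos, with males and females together in each. Because pools were sequenced, the spread between embryos was not measured. The difference between libraries is therefore given as a description, without a p-value, and n = 2 for every mean.

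MicroRNAs (miRNAs) are processed from hairpin precursors, and the bases 2 to 8 of the mature strand, its seed, pair with the messenger RNAs that it represses. The Mir200 family consists of 5 genes in 2 polycistrons, that is, precursors that lie close together on 1 primary transcript. The family represses Zeb1 and Zeb2, transcription factors that switch off epithelial genes such as the cadherin gene Cdh1, and those factors in turn repress both Mir200 transcripts. Mir205 is known from the basal layer of stratified epithelia and also represses the Zeb genes. Mir203 is known from the upper layers of the epidermis, where it limits the stem cell factor Trp63. In the nervous system, Mir200 members are known from the olfactory epithelium and from sensory placodes.

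The mature strands are shown because their seeds divide the family in a way that cuts across the polycistrons. Each is the mature strand that is usually the more abundant, taken from RefSeq on build GRCm38.p6, which has the coordinates of mm10, written 5′ to 3′ with the seed in capitals. All 7 genes were found in RefSeq.
miR-200b-3p: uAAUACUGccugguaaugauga
miR-429-3p: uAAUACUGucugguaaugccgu
miR-200c-3p: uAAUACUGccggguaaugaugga
miR-200a-3p: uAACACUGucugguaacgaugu
miR-141-3p: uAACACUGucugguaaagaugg
miR-205-5p: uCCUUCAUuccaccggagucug
miR-203-3p: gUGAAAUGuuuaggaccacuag

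Mir200b, Mir429 and Mir200c shared the seed AAUACUG, and Mir200a and Mir141 shared the seed AACACUG. With positions counted from 1 at the 5′ end and the miR-200b-3p base given first, the seeds of the groups differed by the single substitution U4C. Among the RefSeq miRNA genes, 3 genes carried the first seed and 2 carried the second, so that no gene outside the family had either. The strands of Mir200b and Mir200c differed by U11G and A22G over 22 bases, and those of Mir200a and Mir141 by C17A and U22G, with the Mir200a base first. No member's precursor shared more than 17 consecutive bases with any of 1004 other precursors in RefSeq, and the longest stretch was the one between Mir200a and Mir141. Mir205 and Mir203 had seeds that no other RefSeq miRNA gene carried. The deposited tables hold 1 count per gene, so the arms of a hairpin were not separated.

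The first polycistron lies on the minus strand of chromosome 4 in the order Mir200b, Mir200a, Mir429. Mir200b (ENSMUSG00000065549) spans positions 156055681 to 156055750, Mir200a (ENSMUSG00000065400) 156054896 to 156054985, and Mir429 (ENSMUSG00000065427) 156053905 to 156053987. The gaps are 695 bases and 908 bases. In the GENCODE M21 annotation all 3 precursors lie in introns of the protein-coding gene Ttll10 and inside the non-coding gene Gm13648, and Mir429 overlaps an exon of Gm13648. The second polycistron lies on the minus strand of chromosome 6, with Mir200c (ENSMUSG00000065462) at 124718322 to 124718390 and Mir141 (ENSMUSG00000065474) at 124717914 to 124717985, 336 bases apart. Both lie within Gm15884, an antisense RNA gene, in an intron, and Mir141 also overlaps the locus Gm29008 in part. No annotated miRNA gene outside the family lay within 10000 bases of a member on the same strand. For Mir200b and Mir200c the identifier's version differed between the tables and M21, and their positions are those of M21 and RefSeq.

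The hairpins of the abundant member of each polycistron are shown with both mature arms in capitals, since reads of either arm enter the gene's count.
Mir429 hairpin: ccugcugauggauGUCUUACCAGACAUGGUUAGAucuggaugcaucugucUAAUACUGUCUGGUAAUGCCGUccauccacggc
Mir200c hairpin: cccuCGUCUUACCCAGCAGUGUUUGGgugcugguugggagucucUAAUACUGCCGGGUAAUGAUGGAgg

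Mir205 (ENSMUSG00000065533) lies on the minus strand of chromosome 1 at 193507463 to 193507530, in an exon of the long non-coding RNA gene 4631405K08Rik, named Mir205hg in RefSeq. Mir203 (ENSMUSG00000065574) lies on the plus strand of chromosome 12 at 112130880 to 112130955, outside any other M21 gene. RefSeq also places a hairpin on the opposite strand of the same bases, Gm51289, with the synonym Mir203b.

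Library 1 had 4228685 counts on the sense strand of miRNA genes and library 2 had 6039889, and levels are given as CPM, a gene's sense counts per 1000000 of these. One count was worth 0.236 CPM in library 1, against 0.166 CPM in library 2. All 7 members had at least 10 counts in each library, the threshold for a detected gene, as did 363 genes in all. The members' mature strands, both arms included, are of nearly the same length, so levels were not divided by length. Intervals are exact 95% counting intervals and cover counting error only, since amplified reads without molecular identifiers are not independent molecules.

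The 7 members together reached 5458 CPM in library 1, against 631 CPM in library 2, a ratio of 8.66 (8.36 to 8.96). They held 0.546% of the sense counts of library 1 (95% Wilson interval 0.539 to 0.553), compared with 0.0631% of those of library 2 (0.0611 to 0.0651). The mean was 3045 ± 3414 CPM (SD, n = 2), so the spread between the pools was larger than the mean itself. In this bulk tissue, fewer cells of a type and less of the RNA per cell cannot be told apart.

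**Figure D1:**
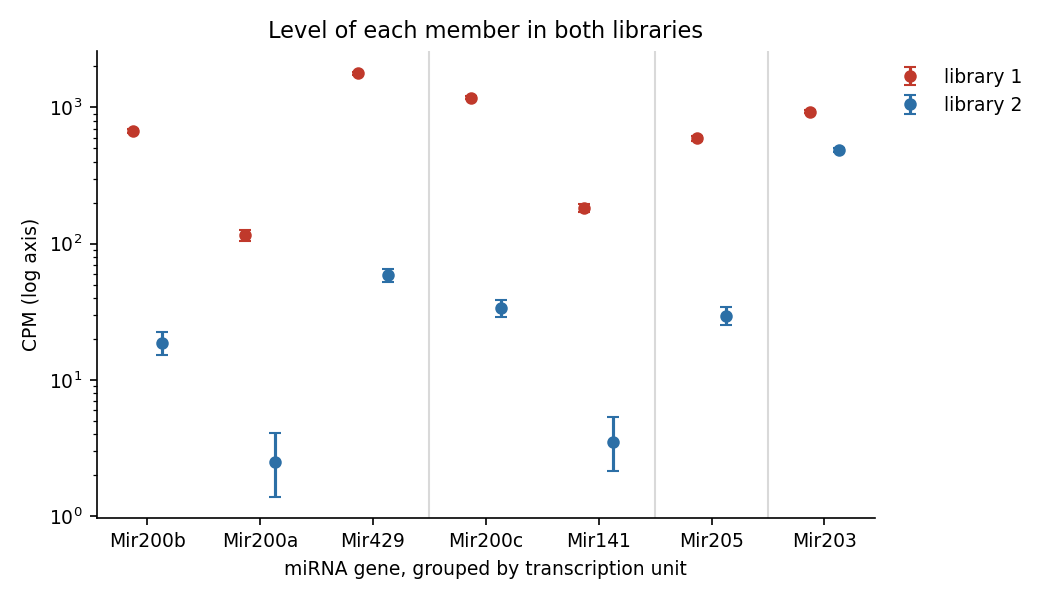
Level of each member in CPM on a log axis, with library 1 in red left of library 2 in blue, points at the measured level and bars at the exact 95% counting interval. The Mir200 family and Mir205 lie more than 10-fold apart between the libraries, whereas Mir203 had 934 CPM in library 1, against 485 CPM in library 2.

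In the polycistron of chromosome 4, Mir429 had 7534 counts in library 1, or 1782 CPM, and 353 counts in library 2, or 58.4 CPM. Mir200b had 2831 counts in library 1 (669 CPM) and 112 counts in library 2 (18.5 CPM). Mir200a had 488 counts in library 1 (115 CPM) and 15 counts in library 2 (2.48 CPM). The members kept the same order in both libraries, Mir429 first and Mir200a last, and each was high in library 1 and low in library 2. The ratio of library 1 to library 2 was 30.5 for Mir429 (27.4 to 34.0), 36.1 for Mir200b (29.9 to 44.0) and 46.5 for Mir200a (27.9 to 83.7). These intervals overlap one another. The polycistron as a sum had 2567 CPM in library 1, against 79.5 CPM in library 2, a ratio of 32.3 (29.5 to 35.5).

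In the polycistron of chromosome 6, Mir200c had 4998 counts in library 1, or 1182 CPM, and 203 counts in library 2, or 33.6 CPM. Mir141 had 776 counts in library 1 (184 CPM) and 21 counts in library 2 (3.48 CPM). Mir200c was the more abundant in both libraries. The ratio of library 1 to library 2 was 35.2 for Mir200c (30.6 to 40.7) and 52.8 for Mir141 (34.3 to 85.8). As a sum, the polycistron had 1365 CPM in library 1, against 37.1 CPM in library 2, a ratio of 36.8 (32.2 to 42.3). That interval overlaps the one of the chromosome 4 polycistron, so that transcripts from separate chromosomes differed between the pools by factors that were not clearly separated at this depth.

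Mir205 had 2507 counts in library 1, or 593 CPM, and 178 counts in library 2, or 29.5 CPM. Its ratio of 20.1 (17.3 to 23.6) lay below those of all 5 Mir200 genes, and its interval did not overlap with any of theirs. Mir203 had 3948 counts in library 1, or 934 CPM, and 2927 counts in library 2, or 485 CPM. Mir203 was thus the most abundant member in library 2, and its ratio of 1.93 (1.84 to 2.02) lay just under 2-fold. Of the 7 members, 6 were at least 2-fold higher in library 1 and 0 were at least 2-fold lower. Among all 363 detected genes, 6.06% were at least 2-fold higher in library 1 and 0.275% were at least 2-fold lower. Since this difference chose the members, nothing is read from that contrast.

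**Figure D2:**
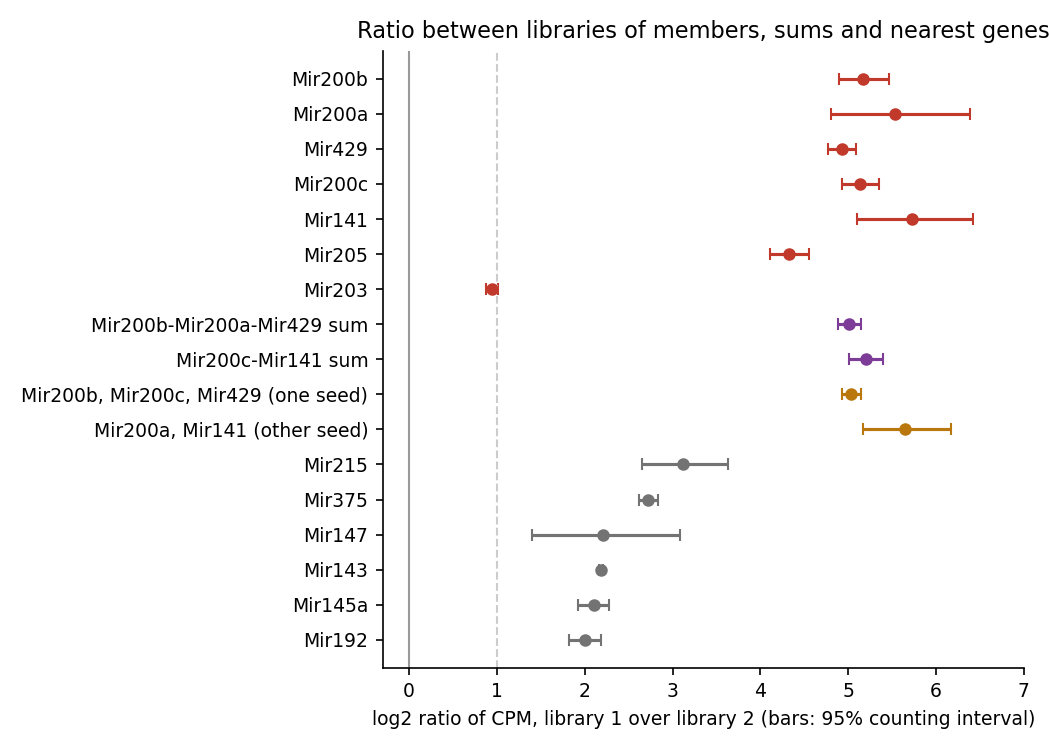
Log2 ratio of CPM, library 1 over library 2, with exact 95% counting intervals. Shown are members (red), polycistron sums (purple), seed groups (orange) and the 6 other detected genes with the nearest ratio (grey). The Mir200 genes lie between 4.93 and 5.72, Mir205 at 4.33 and Mir203 at 0.95, and the grey genes at or below 3.12. The dashed line marks 2-fold.

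The order of the members by level differed between the pools. In library 1 it was Mir429, Mir200c, Mir203, Mir200b, Mir205, Mir141 and Mir200a, with counting intervals that did not overlap between any neighbours. In library 2 it was Mir203, Mir429, Mir200c, Mir205, Mir200b, Mir141 and Mir200a. There, the intervals of Mir200c and Mir205 overlapped, as did those of Mir141 and Mir200a, so these pairs cannot be ordered. Among all 1973 genes, Mir429 ranked at position 68 in library 1 and 221 in library 2, Mir200c at 79 and 251, and Mir200a at 193 and 357. Mir203 kept nearly the same rank, with 91 in library 1 and 108 in library 2. When the 2 libraries are taken as replicates, the SD exceeded the mean for each member except Mir203, which averaged 709 ± 317 CPM, against 920 ± 1218 CPM for Mir429. Within each library, the Mir200 genes stood in the order Mir429, Mir200c, Mir200b, Mir141 and Mir200a, with the last pair not separable in library 2.

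The proportions of the members within a polycistron do not depend on library scaling. Mir429 made up 69.4% of its polycistron's counts in library 1 (Wilson interval, 68.5 to 70.3), compared with 73.5% in library 2 (69.4 to 77.3). Mir200b made up 26.1% in library 1 (25.3 to 26.9) and 23.3% in library 2 (19.8 to 27.3). Mir200a made up 4.50% in library 1 (4.12 to 4.90) and 3.13% in library 2 (1.90 to 5.09). Mir200c made up 86.6% of the chromosome 6 polycistron in library 1 (85.7 to 87.4) and 90.6% in library 2 (86.1 to 93.8), with Mir141 as the rest. In each case the intervals of the libraries overlap. Overlap does not test a difference, so whether the proportions changed slightly was not tested. The balance between polycistrons also had overlapping intervals, with 1.88 counts from chromosome 4 per count from chromosome 6 in library 1 (1.82 to 1.94) and 2.14 in library 2 (1.82 to 2.52).

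**Figure D3:**
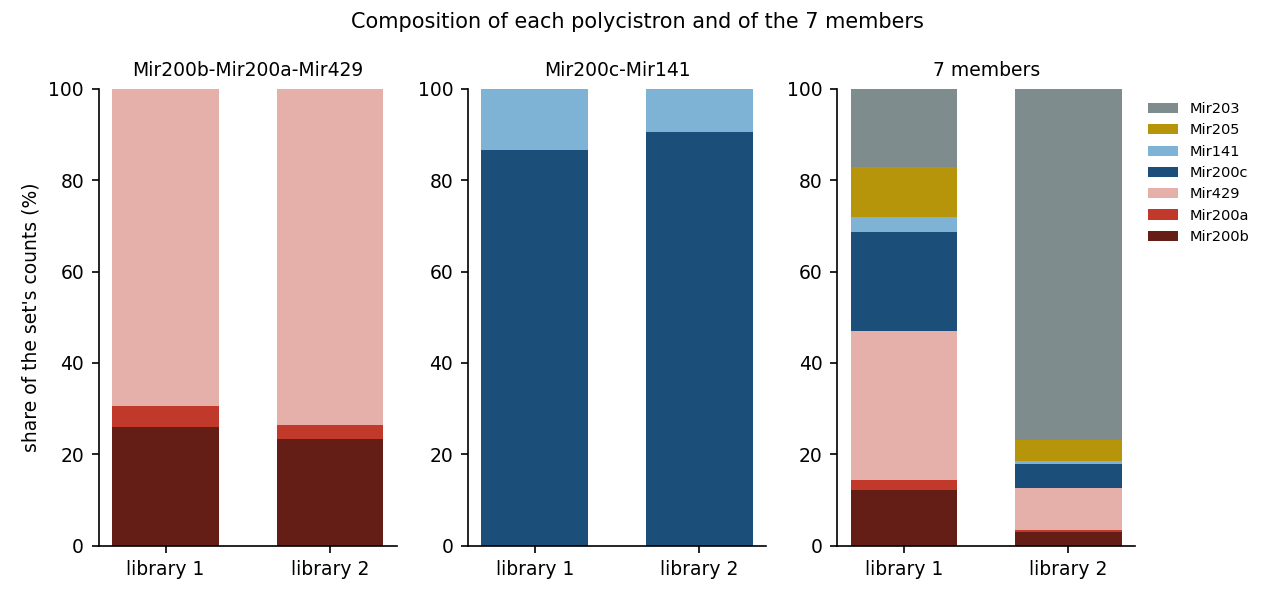
Share of counts, in percent, that each member took within the chromosome 4 polycistron (left), the chromosome 6 polycistron (middle) and the 7 members together (right), with library 1 left of library 2 in each panel. Both polycistrons have nearly the same makeup in the libraries, while Mir203 took 17.1% of the members' counts in library 1 and 76.8% in library 2.

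Grouped by the seed of the strand shown above, the AAUACUG genes Mir200b, Mir200c and Mir429 reached 3633 CPM in library 1, against 111 CPM in library 2, a ratio of 32.8 (30.4 to 35.5). The AACACUG genes Mir200a and Mir141 reached 299 CPM in library 1, against 5.96 CPM in library 2, a ratio of 50.1 (36.0 to 71.9). The ratio intervals do not overlap. The AAUACUG group held 92.4% of the family's counts in library 1 (92.0 to 92.8) and 94.9% in library 2 (93.0 to 96.3), and these intervals do not overlap either, though by a narrow margin. In both pools most counts of the family thus came from these 3 genes. Since a gene's count mixes both arms, and the 5p arms have other seeds, the counts cannot be assigned to a seed. The AACACUG value of library 2 rests on 36 counts.

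The members as a whole differed in makeup far more than either polycistron did. The Mir200 family took 72.0% of the members' counts in library 1 (71.5 to 72.6) and 18.5% in library 2 (17.3 to 19.7). There were 4.21 family counts per Mir203 count in library 1 (4.07 to 4.36) and 0.241 in library 2 (0.221 to 0.261). For Mir205, 6.63 family counts per Mir205 count in library 1 (6.36 to 6.92) stood against 3.96 in library 2 (3.35 to 4.69). Without Mir203 the members' sum was 4525 CPM in library 1, against 146 CPM in library 2, a ratio of 31.0 (29.0 to 33.2) in place of 8.66.

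The start regions of host transcripts are shown because Zeb1, named above as a repressor of the Mir200 transcripts, is known to bind the E-box CACCTG. A part of Zeb1 in the difference between the libraries was not tested. Windows from 250 bases before to 50 bases after the annotated start were available in RefSeq (GRCm38.p6) for Gm13648, whose start lies 4052 bases before the Mir200b precursor, and for Mir205hg, whose start lies 2680 bases before Mir205. Both are on the minus strand and are written 5′ to 3′, with CACCTG in capitals. The motif was searched as CACCTG and, for the other strand, as CAGGTG.
Gm13648, chr4:156059753-156060052: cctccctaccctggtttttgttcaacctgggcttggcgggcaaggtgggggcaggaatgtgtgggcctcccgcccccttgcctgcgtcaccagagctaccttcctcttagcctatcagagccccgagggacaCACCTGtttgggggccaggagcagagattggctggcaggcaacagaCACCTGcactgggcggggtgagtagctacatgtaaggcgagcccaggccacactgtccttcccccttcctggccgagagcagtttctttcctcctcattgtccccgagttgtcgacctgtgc
Mir205hg, chr1:193510161-193510460: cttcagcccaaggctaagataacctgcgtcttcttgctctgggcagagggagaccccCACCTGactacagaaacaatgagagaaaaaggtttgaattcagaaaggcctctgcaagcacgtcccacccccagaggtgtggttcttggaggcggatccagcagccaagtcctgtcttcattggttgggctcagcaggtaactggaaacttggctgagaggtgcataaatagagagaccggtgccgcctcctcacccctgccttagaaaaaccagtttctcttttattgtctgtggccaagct

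The Gm13648 window held 2 matches, which start at its bases 133 and 179, and the Mir205hg window held 1, at base 58. Of 32851 windows of 300 bases in the RefSeq table, 20.2% held at least 1 match and 2.88% held at least 2. No such window was available for Gm15884, so the host of Mir200c and Mir141 was not searched. A match describes letters in the window and says nothing of binding in these embryos.

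Outside the members, the detected genes with the nearest ratio over the 2 libraries were Mir215, Mir375, Mir147, Mir143, Mir145a and Mir192. Genes with fewer than 10 counts in either library were left out of this ranking. One of them, Mir194-1, had a ratio of 7.62 (3.70 to 17.7), above that of Mir375. It had 48 counts in library 1 and 9 in library 2. Likeness was measured as the distance of a gene's log2 ratio from the members' median of 5.14. Among detected genes Mir215, known from gut and kidney, came nearest, at a distance of 2.01. It had 60.5 CPM in library 1, against 6.95 CPM in library 2. Mir375, known from endocrine cells, had 896 CPM in library 1, against 136 CPM in library 2. Mir143 and Mir145a, which share a cluster and are known from smooth muscle, had ratios of 4.54 (4.48 to 4.61) and 4.29 (3.80 to 4.85). In absolute terms Mir143 differed more, by 13999 CPM, against 4828 CPM for all 7 members together.

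Lists of marker miRNAs of other tissues, made with earlier results of these data known, show what else differed along with the members. The median log2 ratio (library 1 over library 2) was 5.14 for the members and 0.03 over all 363 detected genes. In a list of 15 other miRNA genes of surface, gut, ciliated and sensory epithelia, 12 were detected, 4 of them at least 2-fold higher in library 1 and 0 at least 2-fold lower, with a median of 0.31. The shares over all 363 detected genes, 6.06% and 0.275%, are the background for the counts of every list. These 4 were Mir375, Mir192, Mir194-2 and Mir215, genes known from gut and endocrine cells. The sensory cluster of Mir183, Mir96 and Mir182 was abundant in both, with Mir182 at 4499 CPM in library 1, against 3837 CPM in library 2. The epidermal gene Mir31 had 84.9 CPM in library 1, against 43.9 CPM in library 2, a ratio of 1.93 (1.65 to 2.28), close to that of Mir203. Mir449a of ciliated cells had 38.5 CPM in library 1, against 38.4 CPM in library 2, whereas its neighbours Mir449b and Mir449c were at 0 in both. Also in the list, Mir34c had a ratio of 1.31 (1.22 to 1.40) and Mir34b one of 0.870 (0.606 to 1.24). The remaining detected gene, Mir184, lay at 0.974-fold (0.470 to 1.96), which rests on only 15 counts from library 1 against 22 from library 2.

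The mesenchyme and smooth muscle list reached 22420 CPM in library 1, against 7594 CPM in library 2, led by Mir143, with 3 of 6 detected genes at least 2-fold higher in library 1 and a median of 1.04. These 3 were Mir143, Mir145a and Mir214, the last known from mesenchyme, and Mir145b was at 0 in both libraries. Mir143 alone, with 17950 CPM in library 1, against 3951 CPM in library 2, made up most of the list's difference. Mir140, next by level, had 2985 CPM in library 1, against 3025 CPM in library 2. Mir199b and Mir199a-2 had ratios of 1.32 and 1.73. In the blood and leukocyte list, 1 of 6, Mir155, passed 2-fold, the median was 0.39, and the sum was 635 CPM in library 1, against 420 CPM in library 2. By mean level its most abundant gene was Mir223 of myeloid cells, with 204 CPM in library 1, against 104 CPM in library 2. The erythroid gene Mir451a, which was above Mir223 in library 2, had 143 CPM in library 1, against 138 CPM in library 2. The part of such cells in the members' difference was not tested.

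The neural and choroid plexus lists did not follow the members. Of 14 detected neural genes, 0 were at least 2-fold apart, with a median of -0.07 and sums of 14706 CPM in library 1, against 15828 CPM in library 2. Mir137, the most abundant of them, had 6615 CPM in library 1, against 7220 CPM in library 2. The choroid plexus, the secretory epithelium of the brain ventricles, was represented by 4 detected genes, of which 0 were at least 2-fold apart. Their log2 ratios lay between -0.56 and -0.33, with a median of -0.49, against 0.03 over all detected genes. Mir204 was the most abundant, at 350 CPM in library 1, against 441 CPM in library 2. Neural markers were thus present in both pools, although each listed copy of the neuronal Mir124a was low. Mir124a-1 had 8 counts in library 1 and 17 in library 2, and Mir124a-2 had 8 in each. Mir124a-3 had 2 counts in library 1 and 5 in library 2, and Mir9-2 had 3 and 7. Reads that map to several places, 29.4% of the reads in library 1 and 29.7% in library 2, were not assigned to genes. A part of such reads in these low counts was not tested.

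The endothelial gene Mir126a had 22011 CPM in library 1, against 19666 CPM in library 2. In the striated muscle list, led by Mir206 with 283 CPM in library 1, against 360 CPM in library 2, 1 of 5 detected genes passed 2-fold, Mir208a, with 15 counts in library 1 against 10 in library 2. The liver gene Mir122 had 66.0 CPM in library 1, against 56.3 CPM in library 2.

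**Figure D4:**
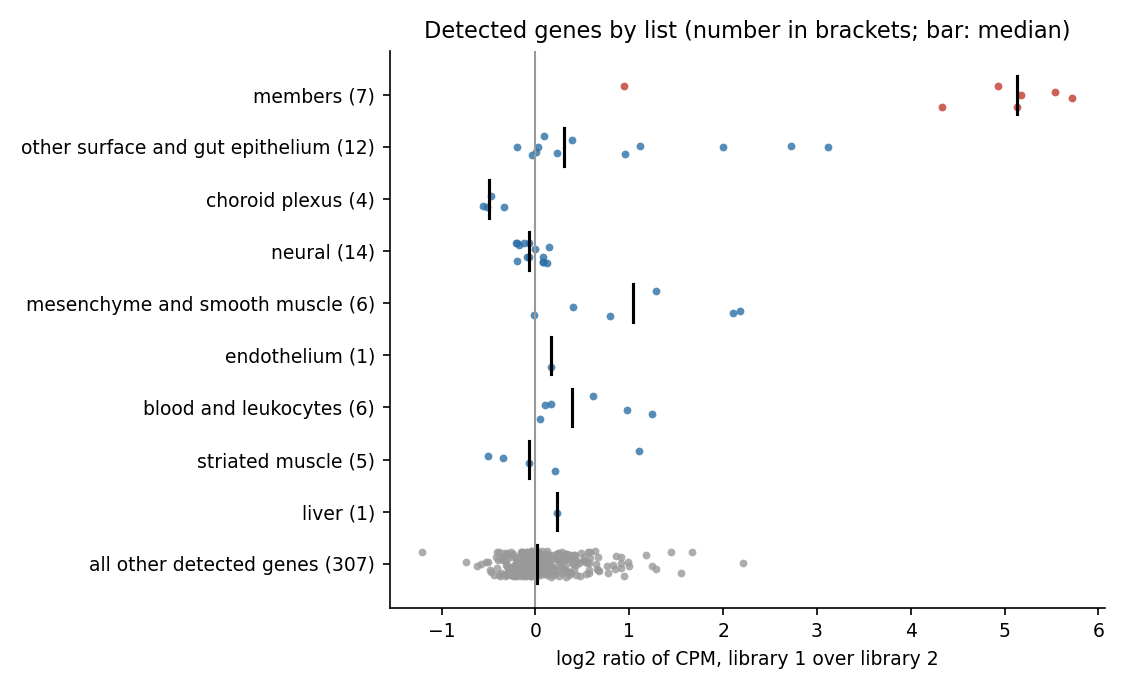
Log2 ratio of CPM, library 1 over library 2, of each detected gene, by list, with the number of genes in brackets and a bar at the median. The members (red) lie at 4.33 and above with the exception of Mir203, the highest other gene, Mir215, lies at 3.12, and the detected genes in no list, at the bottom, gather around 0.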

How the data were processed

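MicroRNA sequencing of 2 pools was deposited as raw counts per miRNA gene, 1 table per library, per the file headers of the accompanying README texts on build mm10 with annotation GENCODE M4. Aligner, counter and adapter trimming: not given in the sources used here. Counts come for both strands together and for either strand, and the strand used as sense had the larger total in each library. Entries that name no gene (unmapped, multimapping and unassigned reads) were left out: they held 45.7% of 7925935 reads in library 1, against 47.7% of 11738914 in library 2. Of 1973 identifiers, 1894 matched GENCODE M21 symbols without the version, the members among them.

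CPM and ratios used the sense total as library size. With 1 group of 2, no test was run. Ratios have Clopper-Pearson intervals, levels Poisson intervals and shares Wilson intervals, at 95%. Interval coverage was checked on simulated counts that were independent, so the check does not extend to amplified reads. The members, lists and rules were chosen with earlier results of these data known. Named genes were the members, the 6 detected genes nearest by ratio, each list's most abundant gene and its detected genes at least 2-fold apart. The few others named were chosen after their values were seen. Alternatives were edgeR 4.0.16 TMM and DESeq2 1.42.0 scaling in R 4.3.3, other totals, filters, folds, pseudocounts and both strands. Python 3.11.15 with scipy 1.17.1 was used.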

Additional observations from a re-analysis of the deposited data

Results flagged for a closer look

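Counts appeared on the strand opposite to Mir203, a column that the comparisons above do not use. There were 24 such counts in library 1 and 59 in library 2, above the 3 counts that a count of 0 allows. They made up 0.604% of the reads at Mir203 in library 1 (95% Wilson interval 0.406 to 0.898), compared with 1.98% in library 2 (1.53 to 2.54). Scaled to the sense total, this was 5.68 CPM in library 1, against 9.77 CPM in library 2, a ratio of 0.581 (0.346 to 0.948), so the opposite strand was lower in library 1 while Mir203 itself was higher. The other 6 members had at most 1 count there in library 1 and at most 2 in library 2. Of 363 detected genes, 6 had more than 3 such counts in both libraries and 335 had none in either. RefSeq (GRCm38.p6) places the hairpin Gm51289 there, on the minus strand of chromosome 12 from 112130887 to 112130946. Its mature strands are shown with the seed in capitals, since reads from it would fall in this column.
miR-203b-5p: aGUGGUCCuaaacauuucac
miR-203b-3p: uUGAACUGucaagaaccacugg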

How the results depend on the processing

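Across 41 results and 214 alternative values, 183 stayed within the counting interval, SD or 1.5-fold range of the main value and 0 changed direction. For the mean level the SD range says nothing of stability, since with n = 2 the value without either library always lies within it. The members' summed log2 ratio of 3.11 was 3.05 with TMM, 3.17 over all reads and 3.02 over sense counts without the members and the 10 most abundant genes. Leaving out Mir203, which was chosen after seeing the data, gave 4.95. Both polycistrons' ratios stayed within their intervals. The mean level of 3045 CPM ranged from 631 CPM without library 1 to 5458 CPM without library 2, so it rests on library 1. The 22 detected genes at least 2-fold higher in library 1 (6.06%) became 72 of 573 (12.6%) with at least 1 count in each library, 12 of 196 (6.12%) with a mean of at least 100 CPM, 45 of 363 (12.4%) at 1.5-fold and 12 of 363 (3.31%) at 4-fold. Members past the fold numbered 6 throughout, except 7 at 1.5-fold, and 4 at 100 CPM, where fewer were tested, and these counts stand against the shares just given. Mir203 was below 2-fold under every scaling tried, with a log2 ratio of 0.86 to 1.00. The median of all genes moved by under 0.1 (log2) with any scaling. No paired analysis was possible because there is 1 group. Counting error is widest for Mir200a and Mir141 among the members, with 15 and 21 counts in library 2, and the spread between the pools is larger than counting error for the members' sum.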
